A study of Mus musculus with 2 samples.

Results

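The genes described here are the carriers that move sugars, amino acids, carboxylates, vitamins, nucleosides, peptides, bile acids and fatty acids across membranes, read in the kidneys of 1 Mxi1 -/- mouse and 1 Mxi1 +/+ mouse. A gene was counted when the platform annotation gave it a symbol in the Slc families 1, 2, 3, 5, 6, 7, 10, 13, 15, 16, 17, 18, 19, 23, 27, 28, 29, 36, 38 or 43. This found 101 genes, on 102 probes, of 10208 named genes on the array. Each genotype was read on 1 single-colour CodeLink oligonucleotide array, both samples are labelled 1Y and kidney, and the Mxi1 +/+ animal is the control. The labels give no strain, sex or deleted exon, and they name no treatment. Mxi1 is a repressor that pairs with MAX and competes with MYC for the same DNA. Readings are array intensities on the linear scale of the deposited values. The Mxi1 probe read 1.69 in the Mxi1 -/- kidney and 4.31 in the Mxi1 +/+ kidney, 2.54-fold lower, which checks the labels in direction only, since the place of the probe in the gene is not given. With 1 mouse per genotype no difference could be set against the spread between animals, so no p-value is given and every value is a reading of 1 kidney.

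The kidney filters sugars, amino acids and vitamins into the urine and takes nearly all of them back in the proximal tubule. Carriers of the brush border, which faces the urine, use the sodium or proton gradient to bring solutes into the cell, and carriers of the basolateral membrane pass them on to the blood. Many amino acid carriers work as pairs of a heavy chain from family 3 and a light chain from family 7. In the medulla other carriers load cells with organic osmolytes such as betaine, taurine and inositol, which balance the high salt around them. Carriers of neurotransmitters are best known from neurons.

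MAX and its partners bind the E-box CACGTG, a palindrome that reads the same on both strands. The 250 bases before each listed transcription start were searched for these letters in the RefSeq promoter table of build GRCm38.p6, which held 105 starts of 76 of the 101 carriers. The E-box stood in 12 of these starts (11.4%), against 6.02% of all 32851 starts in the table. The stretches below are shown because they carry the E-box in carriers whose level reaches the array median. Each has up to 18 bases on either side, 5′ to 3′ on the gene's strand, with the E-box in capitals.
Slc1a7 (chr4:107968328-107968369, plus strand): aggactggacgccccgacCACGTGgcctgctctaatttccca
Slc5a1 (chr5:33104058-33104099, plus strand): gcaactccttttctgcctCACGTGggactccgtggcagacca
Slc6a3 (chr13:73536532-73536573, plus strand): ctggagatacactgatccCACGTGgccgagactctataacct
Slc13a3 (chr2:165473328-165473369, minus strand): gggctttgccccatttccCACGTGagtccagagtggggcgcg
Slc27a1 (chr8:71570374-71570415, plus strand): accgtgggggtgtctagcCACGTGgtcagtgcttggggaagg
Slc29a1 (chr17:45595298-45595339, minus strand): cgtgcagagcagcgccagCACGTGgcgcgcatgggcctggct
Slc38a5 (chrX:8271333-8271374, plus strand): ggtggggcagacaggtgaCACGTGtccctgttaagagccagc
Slc38a7 (chr8:95853502-95853543, minus strand): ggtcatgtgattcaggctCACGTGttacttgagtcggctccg

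The log2 difference between the kidneys (Mxi1 -/- minus Mxi1 +/+, each array centred on its median) was 0.37 for Slc1a7 and -0.47 for Slc27a1, and the other 6 carriers of this group lay between -0.16 and 0.18. A match is a description of the letters and not a binding site. Slc29a1 has 8 listed starts and Slc27a1 has 3, so these genes had more chances of a match than a gene with 1 start.

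Of the 101 carriers, 98 gave a signal above 0 on both arrays, and for 60 the mean of the log2 readings reached the median level of the array. These 60 are the set in which folds were counted, beside 5737 genes that met the same condition. Their readings ran between 0.874 and 339 in the Mxi1 -/- kidney, and between 0.839 and 478 in the Mxi1 +/+ kidney. The only error estimate is technical: 41 genes at that level have a pair of probes, and the standard deviation between probes of a gene was 0.167 on the log2 scale (1.12-fold). How far animals, dissections or hybridizations vary is not contained in it.

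The carriers as a group read nearly alike in the 2 kidneys. Of the 60, 24 were higher and 36 lower in the Mxi1 -/- kidney, a share of 60.0% lower where 59.9% of the 5737 genes were lower. The median log2 difference was -0.05 over the carriers and -0.06 over the 5737 genes. At least 1.5-fold higher were 2 carriers, Slc6a12 and Slc10a2, where 2.41% of the genes passed that line. At least 1.5-fold lower was 1 carrier, Slc5a11, where 5.26% of the genes passed that line. No carrier of the 60 reached 2-fold in either direction, where 0.558% of the genes did on the higher and 1.39% on the lower side. Just short of the 1.5-fold line lay Slc6a20b, Slc19a1 and Slc3a1, at 1.48-fold, 1.43-fold and 1.42-fold lower. At a line of 1.25-fold, chosen after the data were seen, 4 carriers were higher and 15 lower. That is 6.67% and 25.0% of the carriers, against 8.12% and 17.6% of the genes. With quantile normalization in place of centring, 6 carriers were higher and 13 lower at this line, beside 583 and 816 of the genes. The tilt to the lower side was smaller in both. On the lower side stood 21.7% of the carriers and 14.2% of the genes, so the carriers' share stayed the larger.

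**Figure D1:**
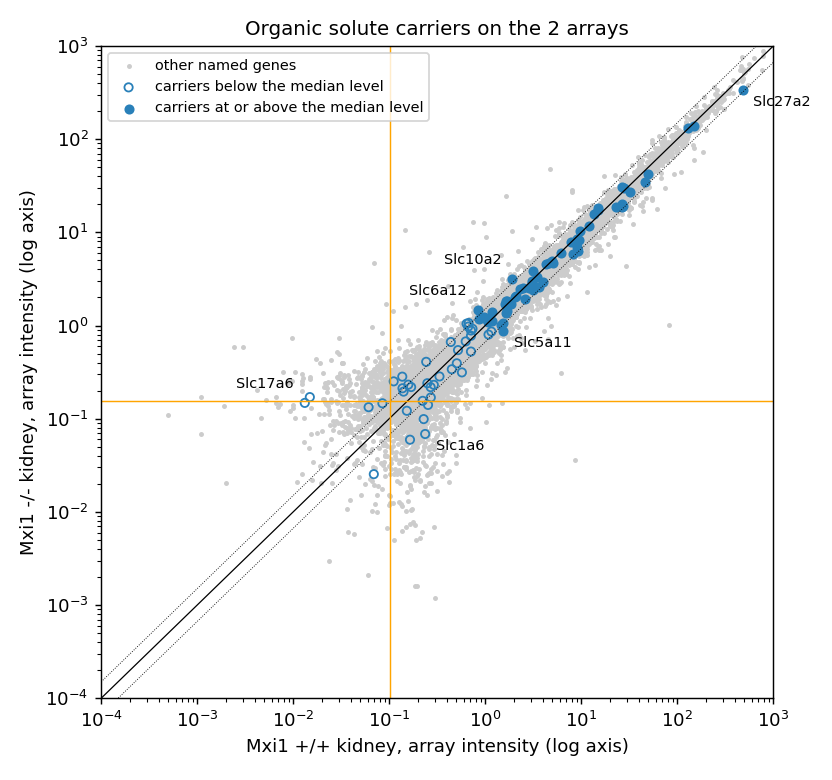
Array intensity of each named gene in the Mxi1 -/- kidney (vertical, log axis) against the Mxi1 +/+ kidney (horizontal, log axis), 1 array each. Blue points are organic solute carriers, filled at or above the median level; orange lines mark the noise floors of 0.156 (Mxi1 -/-) and 0.102 (Mxi1 +/+), and dotted lines mark 1.5-fold. The filled points follow the diagonal and 57 of the 60 lie between the dotted lines, while the open points scatter widely as both readings near the floors.

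**Figure D2:**
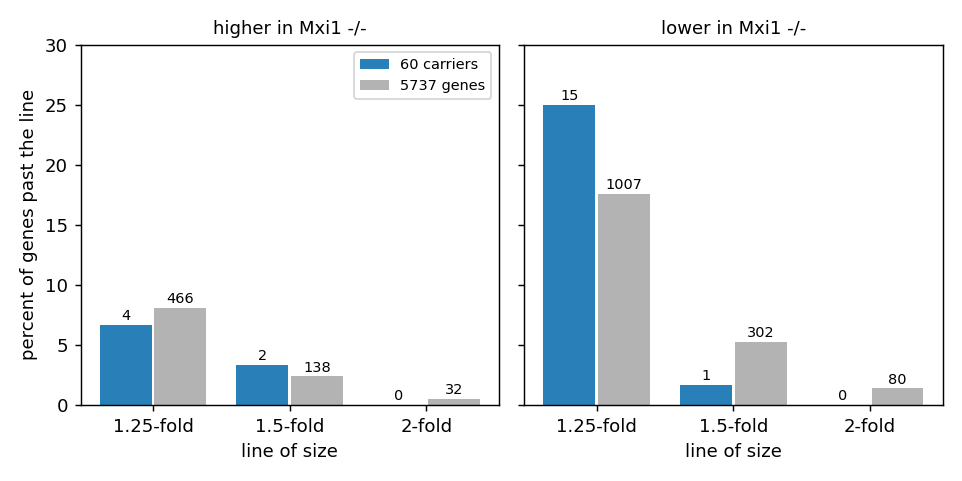
Percent of the 60 carriers (blue) and of the 5737 genes of the same level (grey) that lie past 1.25-fold, 1.5-fold and 2-fold, higher (left) or lower (right) in the Mxi1 -/- kidney; the number over each bar counts genes. No carrier is past 2-fold, and the carriers exceed the genes on the lower side at 1.25-fold only.

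One carrier past the line on the higher side was the osmolyte carrier Slc6a12 (BGT1), which takes up betaine and GABA with sodium and chloride. Probe 8177 gave 1.48 in the Mxi1 -/- kidney and 0.839 in the Mxi1 +/+ kidney, 1.76-fold higher (log2 0.81). Of the 5737 genes, 1.01% lay at least as far on the higher side. The taurine carrier Slc6a6, also an osmolyte carrier of the medulla, read 10.4 in Mxi1 -/- and 9.75 in Mxi1 +/+, within the spread between probes of a gene. These are the 2 named carriers of the 4 on the medullary osmolyte list. Slc6a12 and the GABA carrier Slc6a13 (GAT2) have no other protein-coding gene between them on chromosome 6. Slc6a13 read 1.42 in Mxi1 -/- and 1.67 in Mxi1 +/+ (log2 -0.23), so the neighbours lay on opposite sides. The creatine carrier Slc6a8 read 5.87 in Mxi1 -/-, against 8.16 in Mxi1 +/+, 1.39-fold lower. Of 6 collecting duct markers 4 were lower, and Aqp3 and Scnn1g were slightly higher (log2 0.02 and 0.04). Their summed readings were 41.0 in Mxi1 -/- and 49.1 in Mxi1 +/+, and their median log2 difference was -0.31. Among the 5737 genes, 59.9% lay on the lower side. Of the 2 measured thick ascending limb markers, Egf was higher (log2 0.39) and Kcnj1 lower (log2 -0.65). The part of collecting duct or thick ascending limb cells in the Slc6a12 reading was not tested. In whole kidney RNA, more or fewer cells of a type and more or less RNA per cell cannot be told apart.

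The other carrier past the line on the higher side was Slc10a2 (ASBT), the sodium-coupled bile acid carrier of the ileum and of the proximal tubule brush border. Probe 10909 gave 3.16 in Mxi1 -/-, against 1.90 in Mxi1 +/+, 1.66-fold higher (log2 0.73), and 1.34% of the genes lay at least as far on that side. Slc10a1 (NTCP), the bile acid carrier known from hepatocytes, read 1.85 in Mxi1 -/- and 1.66 in Mxi1 +/+. Slc10a6, which carries sulfated steroids, read 1.12 in Mxi1 -/- and 1.17 in Mxi1 +/+. Slc10a3, a family member with no settled substrate, read 2.59 in Mxi1 -/-, against 3.60 in Mxi1 +/+, 1.39-fold lower. The 4 bile acid and steroid carriers at this level were thus split, 2 higher and 2 lower.

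The carrier past the line on the lower side was Slc5a11 (SMIT2), which takes up inositol with sodium. Probe 9443 gave 0.874 in Mxi1 -/-, against 1.53 in Mxi1 +/+, 1.74-fold lower (log2 -0.80), and 2.46% of the genes lay at least as far on the lower side. The Mxi1 -/- reading lay under that array's median of 0.935, so this fold and that of Slc6a12, whose Mxi1 +/+ reading lay under its array's median of 0.929, rest on dim readings. With a pseudocount of each array's median, which shrinks dim differences by construction, the log2 differences came to -0.43 for Slc5a11, 0.42 for Slc6a12 and 0.52 for Slc10a2, and no carrier passed 1.5-fold.

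The upstream sequences of these 3 carriers are shown because they are the ones past the line. Each is the 250 bases before the outermost RefSeq start (GRCm38.p6), 5′ to 3′ on the gene's strand. Capitals mark either the E-box or GTTAAT, a partial site of the factor HNF1 that is active in proximal tubule cells, on either strand (ATTAAC on the other).
Slc6a12 (chr6:121342324-121342573, plus strand): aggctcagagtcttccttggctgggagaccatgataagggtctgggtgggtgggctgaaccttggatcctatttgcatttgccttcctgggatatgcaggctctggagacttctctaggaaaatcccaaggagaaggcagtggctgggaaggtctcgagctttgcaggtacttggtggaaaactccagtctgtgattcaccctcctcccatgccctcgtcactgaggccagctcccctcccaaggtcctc
Slc10a2 (chr8:5105288-5105537, minus strand): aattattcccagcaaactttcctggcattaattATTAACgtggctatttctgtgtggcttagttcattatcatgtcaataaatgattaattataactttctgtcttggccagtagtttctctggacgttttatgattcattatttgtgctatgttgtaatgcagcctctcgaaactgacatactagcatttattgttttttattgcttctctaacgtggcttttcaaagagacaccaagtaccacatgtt
Slc5a11 (chr7:123214616-123214865, plus strand): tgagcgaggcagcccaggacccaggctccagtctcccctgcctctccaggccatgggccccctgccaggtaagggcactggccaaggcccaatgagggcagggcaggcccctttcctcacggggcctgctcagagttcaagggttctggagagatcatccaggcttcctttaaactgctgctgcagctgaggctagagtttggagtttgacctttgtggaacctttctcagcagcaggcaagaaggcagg

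Among carriers at or above the median level with a listed start, the E-box stood in 1 of 4 that were at least 1.25-fold higher, in 1 of 11 at least 1.25-fold lower and in 6 of 31 within 1.25-fold. Slc10a2 holds 1 GTTAAT match, and Slc6a12 and Slc5a11 hold neither motif in these windows. Slc6a12 has 5 listed starts and none of them has an E-box. GTTAAT stood in 4 of the 105 starts of carriers (3.81%), against 6.43% of all starts. The other carriers with it were Slc6a13, Slc7a7 and Slc36a1.

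**Figure D3:**
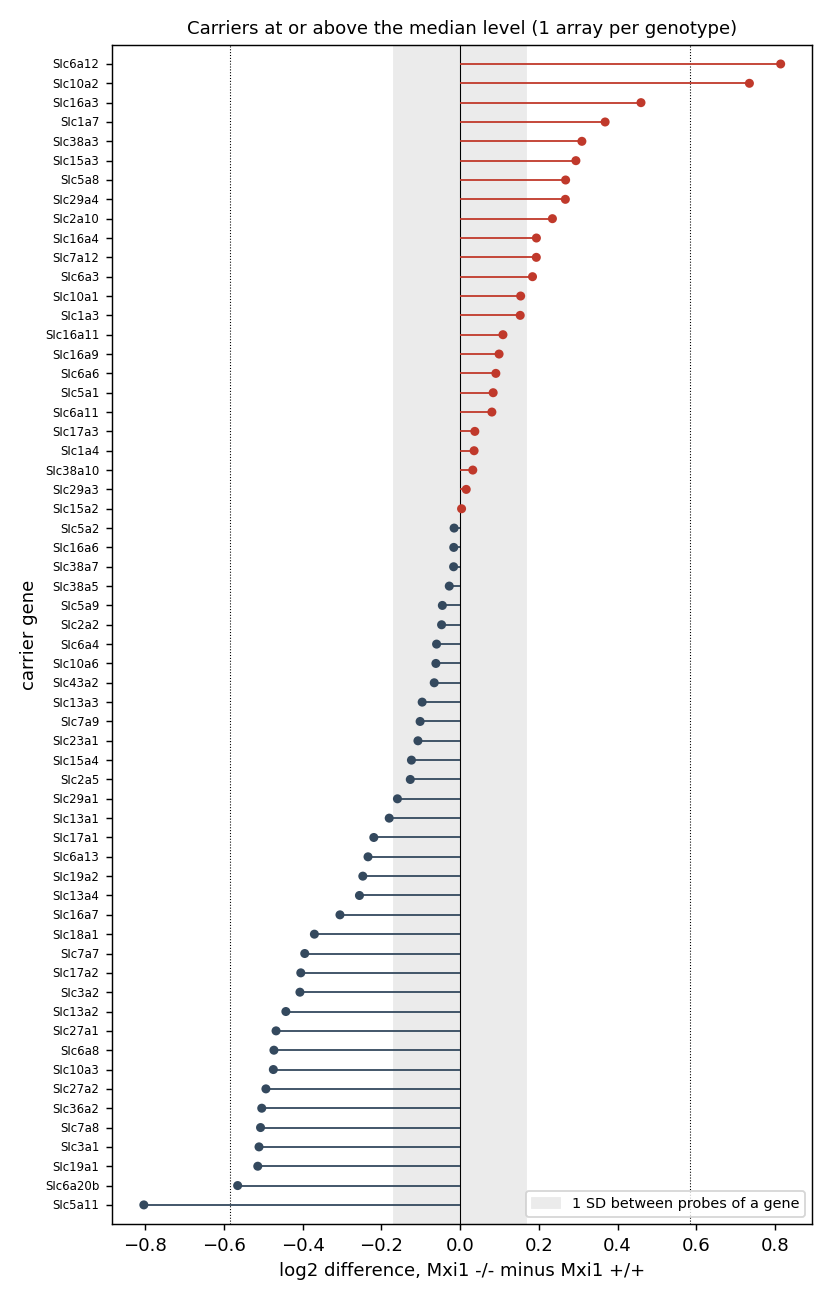
Log2 difference (horizontal, Mxi1 -/- minus Mxi1 +/+) of each of the 60 carriers at or above the median level, in order. The grey band is 1 standard deviation between probes of a gene (0.167) and the dotted lines mark 1.5-fold. Slc6a12 and Slc10a2 stand past the line on the right and Slc5a11 on the left, and most carriers lie between.

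The sodium-glucose carriers that reclaim filtered sugar read alike in both kidneys. Slc5a2 (SGLT2), the main glucose carrier of the early proximal tubule, read 2.02 in Mxi1 -/- and 2.05 in Mxi1 +/+. Slc5a1 (SGLT1), the high-affinity carrier of the late segment, read 4.54 in Mxi1 -/- and 4.29 in Mxi1 +/+. Slc5a9 (SGLT4), a carrier of mannose and fructose, read 1.71 in Mxi1 -/- and 1.76 in Mxi1 +/+. None of these 3 differences exceeded the spread between probes of a gene, and that of Slc5a2 turned positive under lowess.

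Facilitated sugar carriers lay on both sides. Slc2a2 (GLUT2), the basolateral exit for glucose, read 5.97 in Mxi1 -/- and 6.17 in Mxi1 +/+. The fructose carrier Slc2a5 (GLUT5) read 1.72 in Mxi1 -/- and 1.87 in Mxi1 +/+. Slc2a10 (GLUT10) was 1.18-fold higher, at 17.4 in Mxi1 -/- and 14.8 in Mxi1 +/+, more than the spread between probes of a gene. Just below the median level, Slc2a8 (GLUT8) read 0.860 in Mxi1 -/-, against 1.16 in Mxi1 +/+, 1.35-fold lower. Over the 7 sugar and polyol carriers at this level the median log2 difference was -0.04. Only Slc5a11 was past 1.25-fold, where 17.6% of all genes at this level were past that line on the lower side.

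Amino acid carriers made the largest class, with 29 named genes and 15 at or above the median level. In the Mxi1 -/- kidney 5 of the 15 were higher and 10 lower, and their median difference was -0.07 beside -0.06 for all genes. Those past 1.25-fold were 6 lower and 1 higher of the 15, where 17.6% of all genes at this level were past that line on the lower and 8.12% on the higher side.

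In the brush border, the pair that reclaims cystine and basic amino acids had unequal readings. Slc3a1 (rBAT), the heavy chain, read 18.7 in Mxi1 -/-, against 26.7 in Mxi1 +/+, 1.42-fold lower (log2 -0.51). Its light chain Slc7a9 read 139 in Mxi1 -/- and 149 in Mxi1 +/+ (log2 -0.10). Loss of either chain causes cystinuria in humans. The heavy chain's difference exceeded the spread between probes of a gene and the light chain's did not.

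Slc6a20b, a relative of the imino acid carriers of the brush border, read 6.27 in Mxi1 -/-, against 9.28 in Mxi1 +/+, 1.48-fold lower, and 5.70% of the genes lay at least as far on that side. Slc36a2 (PAT2), which carries glycine and proline with protons, read 1.02 in Mxi1 -/-, against 1.44 in Mxi1 +/+, so that Mxi1 -/- was 1.42-fold lower.

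On the basolateral side the 4F2 heavy chain was lower, and so were its light chains Slc7a7 and Slc7a8. Slc3a2 (4F2hc) read 20.0 in Mxi1 -/-, against 26.5 in Mxi1 +/+, 1.33-fold lower. Slc7a7 (y+LAT1), which releases basic amino acids to the blood and is mutated in human lysinuric protein intolerance, read 34.8 in Mxi1 -/-, against 45.8 in Mxi1 +/+, 1.31-fold lower. Slc7a8 (LAT2), which exchanges neutral amino acids, read 1.07 in Mxi1 -/-, against 1.52 in Mxi1 +/+, 1.42-fold lower. Each of the 3 was lower by more than the spread between probes of a gene, yet 11.6%, 12.4% and 7.16% of all genes lay at least as far on that side. The Mxi1 -/- reading of Slc7a8 lay near that array's median of 0.935. With the pseudocount of each array's median its log2 difference came to -0.28.

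Other basolateral carriers did not share that size. Slc43a2 (LAT4), an exit for branched-chain amino acids, read 11.6 in Mxi1 -/- and 12.1 in Mxi1 +/+. Slc38a3 (SN1), which takes up glutamine for ammonia production, read 3.89 in Mxi1 -/-, against 3.14 in Mxi1 +/+, 1.24-fold higher. Over the 7 basolateral carriers of the fixed list, sugar and dicarboxylate carriers included, the count was 6 lower against 1 higher and the median -0.10, where 59.9% of all genes at this level were lower. Slc2a2 is among the 6 and turned positive under lowess.

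**Figure D4:**
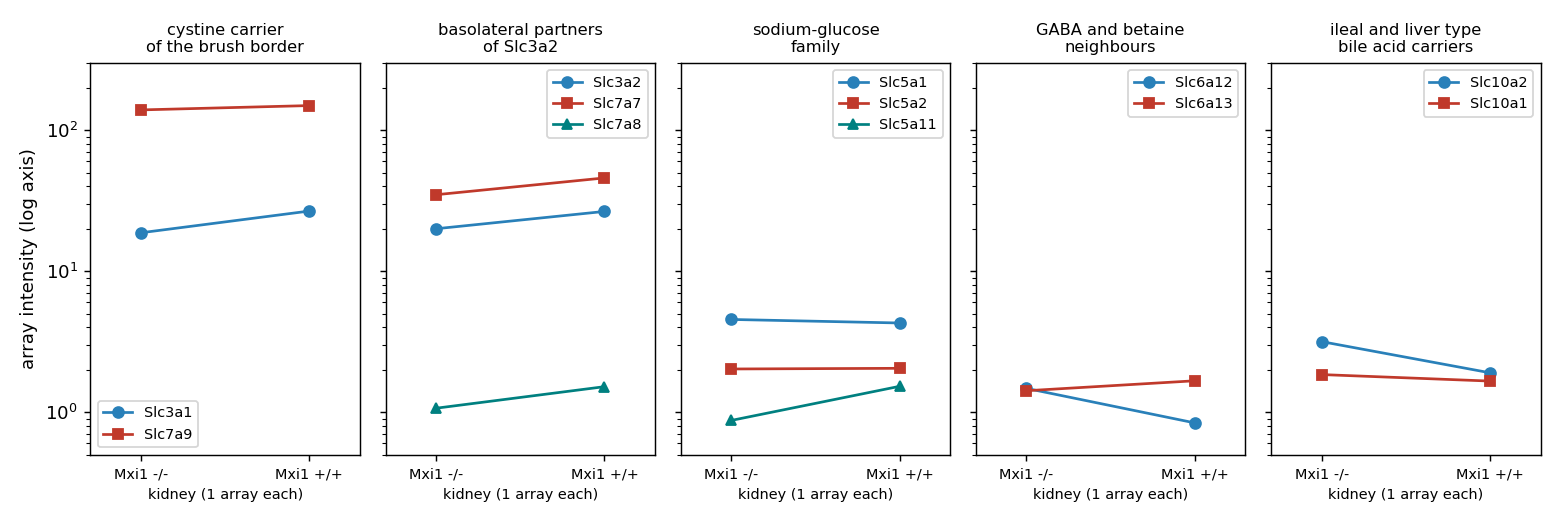
Array intensity (log axis) in the Mxi1 -/- kidney (left point of each line) and the Mxi1 +/+ kidney (right point) for 5 groups of related carriers, 1 array each. Slc3a1 tilts where its partner Slc7a9 hardly does, Slc3a2 tilts the same way as Slc7a7 and Slc7a8, and Slc6a12 and Slc6a13 tilt opposite ways; heights of different genes are not comparable, because each has its own probe.

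Most of the remaining amino acid carriers at this level lay close to even. The furthest was the glutamate carrier Slc1a7 (EAAT5), which read 1.24 in Mxi1 -/-, against 0.962 in Mxi1 +/+, 1.29-fold higher. Slc1a7 was classed here with the amino acid carriers, while the glutamate carrier Slc1a3 was classed with the neurotransmitter carriers. Slc7a12, of the same light chain family as Slc7a9, read 15.6 in Mxi1 -/- and 13.7 in Mxi1 +/+. Slc1a4 (ASCT1), Slc38a5 (SN2), the lysosomal Slc38a7 and Slc38a10 were within 1.03-fold, and the sign of Slc38a5 and Slc38a7 turned under quantile normalization and lowess.

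Few of the carriers whose genes the stress factor ATF4 is known to switch on reached the median level. Of the 9 on the list, 6 were named, 5 read above 0 on both arrays and only Slc3a2 and Slc1a4 reached the median level. Below it, Slc1a5 (ASCT2) read 0.314 in Mxi1 -/-, against 0.571 in Mxi1 +/+, 1.82-fold lower. Slc7a5 (LAT1), the partner of Slc3a2 in growing cells, read 0.212 in Mxi1 -/-, against 0.137 in Mxi1 +/+, 1.54-fold higher. Both Slc7a5 readings lay near the floors of 0.156 in Mxi1 -/- and 0.102 in Mxi1 +/+. Slc7a1 (CAT1) read 0.218 in Mxi1 -/- and 0.270 in Mxi1 +/+.

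Fatty acid carriers were lower at this level, with few genes to go by. Slc27a2 (FATP2), an acyl-CoA synthetase and fatty acid carrier of proximal tubule and liver, read 339 in Mxi1 -/-, against 478 in Mxi1 +/+, 1.41-fold lower (log2 -0.49). Slc27a1 (FATP1), known from fat and muscle, read 2.91 in Mxi1 -/-, against 4.03 in Mxi1 +/+, 1.38-fold lower. Of the genes, 7.70% and 8.77% lay at least as far on that side. The liver-type Slc27a5 lay below the median level and read 1.06 in Mxi1 -/-, against 0.671 in Mxi1 +/+, 1.59-fold higher.

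Fat cell markers were lower beside some of these carriers. With centring, all 11 measured fat cell markers were lower in Mxi1 -/-, with summed readings of 91.3 in Mxi1 -/- and 269 in Mxi1 +/+ and a median log2 difference of -1.90. Leptin (Lep) read 4.83 in Mxi1 -/- and 4.86 in Mxi1 +/+ and turned positive under quantile normalization and lowess, which left 10 lower. Ucp1 was the 1 marker of the list under a noise floor, in Mxi1 -/-. Of the 4 carriers listed for fat cells, Slc27a1 and Slc36a2 were lower as given above. Slc7a10 (ASC-1) read 0.140 in Mxi1 -/-, under the floor of 0.156, and 0.254 in Mxi1 +/+, at least 1.63-fold lower. The insulin-responsive glucose carrier Slc2a4 (GLUT4) was on the other side, at 0.922 in Mxi1 -/- and 0.736 in Mxi1 +/+, 1.25-fold higher. The part of fat cells in the carrier readings was not tested.

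Carboxylate and sulfate carriers lay on both sides, 4 higher and 6 lower of 10, with a median of -0.06. The citrate carrier of the brush border Slc13a2 (NaDC1) read 1.92 in Mxi1 -/-, against 2.61 in Mxi1 +/+, 1.36-fold lower, while its basolateral relative Slc13a3 (NaDC3) read 8.40 in Mxi1 -/- and 8.98 in Mxi1 +/+. The sulfate carriers Slc13a1 (NaS1) and Slc13a4 were 1.13-fold and 1.19-fold lower. The lactate exporter Slc16a3 (MCT4) read 1.19 in Mxi1 -/-, against 0.863 in Mxi1 +/+, 1.38-fold higher. Slc16a7 (MCT2) read 18.5 in Mxi1 -/-, against 22.9 in Mxi1 +/+, 1.24-fold lower. Slc5a8 (SMCT1), which reclaims lactate at the brush border, read 18.2 in Mxi1 -/-, against 15.1 in Mxi1 +/+, 1.20-fold higher. Slc16a4 and Slc16a11 were 1.14-fold and 1.08-fold higher, and Slc16a6 was 1.01-fold lower with its sign turned under quantile normalization and lowess.

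The 3 vitamin carriers at this level lay on the lower side, as did 59.9% of all genes. The folate carrier Slc19a1 (RFC1) read 19.3 in Mxi1 -/-, against 27.5 in Mxi1 +/+, 1.43-fold lower. The thiamine carrier Slc19a2 read 1.38 in Mxi1 -/- and 1.64 in Mxi1 +/+. The ascorbate carrier Slc23a1 (SVCT1) read 4.73 in Mxi1 -/- and 5.10 in Mxi1 +/+, within the spread between probes of a gene. Below the median level the thiamine carrier Slc19a3 and the ascorbate carrier Slc23a2 were 1.32-fold and 1.26-fold lower. The choline carrier Slc5a7 was under the floor in Mxi1 -/-, at 0.0595, against 0.164 in Mxi1 +/+.

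Carriers of urate and organic anions were 2 higher and 2 lower. Slc17a3 (NPT4) read 132 in Mxi1 -/- and 129 in Mxi1 +/+, and Slc17a1 (NPT1) read 42.4 in Mxi1 -/-, against 49.4 in Mxi1 +/+, 1.16-fold lower. Slc17a2, Slc17a3, Slc17a1 and Slc17a4 follow each other on chromosome 13 with no other protein-coding gene between them in RefSeq (GRCm38.p6). Slc17a2 was the 1 carrier with 2 probes, which gave log2 differences of -0.40 and, for the dimmer probe, -0.54. Slc16a9 (MCT9) read 29.5 in Mxi1 -/- and 27.6 in Mxi1 +/+, and the urate carrier Slc2a9, below the median level, was 1.09-fold higher.

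Peptide and nucleoside carriers at or above the median level were 4 higher and 2 lower, none past 1.25-fold. Of all genes at this level 59.9% were lower and 74.3% lay within 1.25-fold. Slc15a2 (PEPT2), the high-affinity peptide carrier of the late proximal tubule, read 7.83 in Mxi1 -/- and 7.81 in Mxi1 +/+. The lysosomal carriers Slc15a3 and Slc15a4, known from immune cells, were 1.23-fold higher and 1.09-fold lower. Macrophage markers were higher in 5 of 5, with summed readings of 49.0 in Mxi1 -/- and 34.1 in Mxi1 +/+, and their part in the Slc15a3 reading was not tested. Among the equilibrative nucleoside carriers at this level Slc29a1 (ENT1) was 1.12-fold lower, Slc29a3 1.01-fold higher and Slc29a4, which carries monoamines, 1.20-fold higher. The log2 differences of Slc15a3 and Slc29a4 exceeded the spread between probes of a gene. With the pseudocount of each array's median they came to 0.152 and 0.148, under that spread. Below the median level, the equilibrative carrier Slc29a2 (ENT2) read 1.05 in Mxi1 -/-, against 0.639 in Mxi1 +/+, 1.64-fold higher. The sodium-coupled nucleoside carrier Slc28a2 (CNT2) was 1.25-fold higher and Slc28a3 (CNT3) 1.17-fold lower there. The purine base carrier Slc43a3 read 0.799 in Mxi1 -/-, against 1.08 in Mxi1 +/+, 1.35-fold lower.

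Neurotransmitter carriers at this level were 3 higher and 3 lower. The vesicular monoamine carrier Slc18a1 read 6.97 in Mxi1 -/-, against 9.01 in Mxi1 +/+, 1.29-fold lower. The serotonin carrier Slc6a4 (1.04-fold lower, with the sign turned under quantile normalization), the GABA carrier Slc6a11 (1.06-fold higher), the dopamine carrier Slc6a3 (1.14-fold higher) and the glutamate carrier Slc1a3 (1.11-fold higher) were closer to even.

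**Figure D5:**
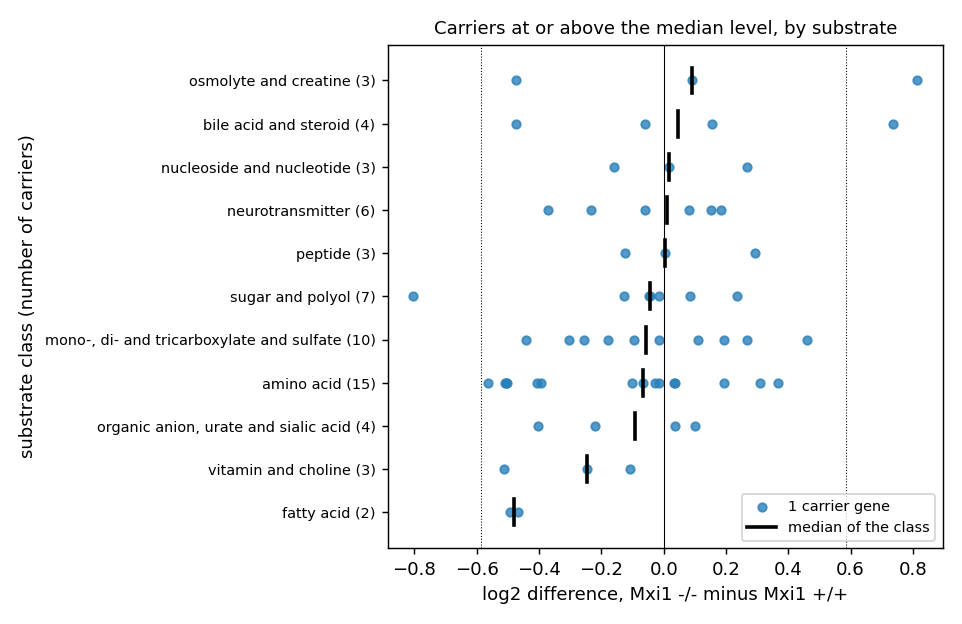
Log2 difference (horizontal, Mxi1 -/- minus Mxi1 +/+) of the 60 carriers by substrate class, 1 point per gene, with the class median as a black bar and 1.5-fold as dotted lines. Medians lie between -0.25 and 0.09 except for the 2 fatty acid carriers at -0.48, and points of most classes fall on both sides of 0.

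Set by place in the proximal tubule, the brush border carriers were 5 higher and 11 lower of 16, with a median of -0.10, and the basolateral carriers had the same median of -0.10 over 7. Of all genes at this level 59.9% were lower, with a median of -0.06. The label kidney was checked against proximal tubule markers, of which 8 of the 11 listed were measured and none lay under a floor. Of these 8, 5 were higher and 3 lower, with summed readings of 1256 in Mxi1 -/- and 1135 in Mxi1 +/+ and a median log2 difference of 0.06. Gatm was the furthest, 1.55-fold lower. The late proximal markers were higher in 4 of 4, 2 of which are the carriers Slc5a1 and Slc7a13, with a median of 0.10. Atp11a, Slc22a7 and Slc5a1 had log2 differences of 0.12, 0.08 and 0.08, each smaller than the probe standard deviation of 0.167. Slc7a13, below the median level, read 0.232 in Mxi1 -/- and 0.158 in Mxi1 +/+, near the floors of 0.156 and 0.102. A rise of the late segment therefore cannot be read from these markers.

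The other 41 carriers were too dim for a firm fold. Both readings cleared the noise floors in 27, of which 16 were higher and 11 lower. At least 1.5-fold higher were 7 of these 27 and at least 1.5-fold lower 2, where 17.2% and 11.9% of 2998 genes of the same kind passed. The furthest were the arginine carrier Slc7a2 (0.252 in Mxi1 -/- and 0.111 in Mxi1 +/+, 2.26-fold) and the iodide carrier Slc5a5 (0.283 in Mxi1 -/- and 0.137 in Mxi1 +/+, 2.07-fold), both within reach of the floors. The readings of 5 carriers lay under both floors, among them the peptide carrier Slc15a1 and the vesicular glutamate carrier Slc17a6. The reading of 1 carrier, the glucose carrier Slc2a3 (GLUT3), lay under the floor in Mxi1 +/+ only. Its Mxi1 -/- reading of 0.1705 stood just above the floor of 0.156. The bound of 1.67-fold higher in Mxi1 -/- is set against the lower Mxi1 +/+ floor and is not firm. Those of 8 lay under the floor in Mxi1 -/- only. The Mxi1 -/- floor is the higher one (0.156 against 0.102), so the counts of 8 and 1 are not comparable. The share of all genes was not counted, so these counts are no result about the carriers. Among the 8, Slc5a4a was at least 1.99-fold and the glutamate carrier Slc1a6 at least 1.52-fold lower. For Slc6a14 and Slc6a5 the Mxi1 +/+ readings of 0.104 and 0.1525 lay under the Mxi1 -/- floor, so no direction follows. Without the floors, Slc2a3 and Slc17a6 would stand at log2 differences of 3.52 and 3.48 and be the largest of all carriers, on Mxi1 +/+ readings of 0.0149 and 0.0132.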

How the data were processed

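Kidney RNA of 1 Mxi1 -/- and 1 Mxi1 +/+ mouse was amplified and labelled as biotinylated cRNA for CodeLink arrays, per the labels' protocols. The authors deposited linear intensities, 1 value for each of 20289 probes on an array. The scaling behind them is not given in the sources used here. Cells holding -9999 (39 in Mxi1 -/-, 60 in Mxi1 +/+) were read as missing. The platform annotation named a gene for 10349 probes, all matched to RefSeq (GRCm38.p6).

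From these, log2 readings were taken with no pseudocount. The median over the 19663 probes above 0 on both arrays was subtracted from each array. For genes with several probes the one with the highest mean was used. The noise floor is 3 times the root mean square of an array's values below 0. Where 1 reading lay under its floor, the fold is a bound against that floor. The arrays' number limits the precision.

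Members, classes and lists were chosen with earlier results of these data known. Named were carriers past 1.5-fold, the ends of each class, those nearest the line, those with the highest mean level and the listed carriers. Other carriers of the same classes were named beside them. Probe specificity among related carriers was not tested. The procedure was tested on simulated data. The tools were statsmodels 0.14.6 (lowess), NumPy 2.4.6, pandas 2.3.3 and matplotlib 3.10.9 under Python 3.11.15. Alternatives were no centring, quantile normalization, lowess, a pseudocount, averaged probes, other level filters and other lines.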

Additional observations from a re-analysis of the deposited data

How the results depend on the processing

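No paired analysis was possible because each genotype has 1 array. The counts of carriers past 1.5-fold, 2 higher and 1 lower, were the same without centring, with quantile normalization, with lowess and with probes averaged. They were 0 and 0 with a pseudocount of the array median, 0 and 0 among genes above the 75th percentile of level, 13 and 8 with no filter on level, 0 and 0 at a 2-fold line, and 4 and 15 at the 1.25-fold line chosen after the data were seen. The first shrinks dim differences and the second leaves 27 carriers, both by construction. The counts of 13 and 8 include readings under the noise floors, and the share of all genes was not counted there. They are therefore no result about the carriers. Above the 75th percentile the medians moved to -0.25 for amino acid carriers, -0.37 for neurotransmitter carriers and for the neuronal list (Slc18a1 alone), and -0.19 for osmolyte and creatine carriers (Slc6a6 and Slc6a8), by leaving out dimmer genes. At that level 8 of 27 carriers were at least 1.25-fold lower and 0 higher (15.3% and 5.41% of 3067 genes), and 6 lower and 1 higher with quantile normalization (10.9% and 8.15%). Single carriers moved by more than the spread between probes of a gene in 7 cases, all with the pseudocount. They were Slc5a11, Slc6a12, Slc10a2, Slc7a8, Slc36a2, Slc16a3 and Slc1a7. Slc7a8 went from -0.51 to -0.28, Slc36a2 from -0.50 to -0.27, Slc16a3 from 0.46 to 0.23 and Slc1a7 from 0.37 to 0.19. Quantile normalization and lowess shifted all genes by a median of 0.05, and turned the sign of 4 and 5 carriers that lay within 1.05-fold.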
